A study of Homo sapiens with 60 samples.

Results

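Okbyeongpung-san, a decoction known in Chinese medicine as Yu Ping Feng San, was compared at its high dose with Saposhnikoviae Radix, the root of one of the herbs it contains. The comparison holds 12 of the 60 libraries of the series: 3 of A549 cells given Okbyeongpung-san at 500 µg/mL, 3 given Saposhnikoviae Radix at 500 µg/mL, and 3 of each at 20 µg/mL, chosen by extract and dose from the labels. A549 is an established human lung adenocarcinoma line with features of alveolar epithelium. All 4 groups received hot-water extracts for 24 h, and each library was made with a directional kit from total RNA. Beside them, 6 libraries of the 2 extracts at 100 µg/mL and 3 of the vehicle (0.1% DMSO in the labels, 2% in the description of the series) are given for reference. That description adds that extracts with a 20% inhibitory concentration below 500 µg/mL were diluted from that concentration, while the labels print 500, 100 and 20 for both extracts. Whether replicate libraries are separate cultures is not stated in the labels, so the spread among them could be purely technical. The p-values reflect the spread within groups estimated over 57 libraries of the series, not over these 12 alone.

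Okbyeongpung-san is made of Astragali Radix, Atractylodis Rhizoma and Saposhnikoviae Radix, so the comparison asks what the whole decoction does that this herb alone, at the same nominal concentration, does not. The proportion of the herb in the decoction is not given in the sources used here. As background, epithelial cells answer bacterial products and cytokines such as TNF and IL-1 through receptors and adaptor kinases that release NF-kB from its inhibitors. NF-kB dimers then bind kappa-B sites near genes for chemokines and complement proteins, and also near genes for their own inhibitors, which end the response. The aryl hydrocarbon receptor (AhR), a sensor of planar aromatic compounds, drives a separate set of genes led by the CYP1 enzymes.

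Library totals were 18330592 to 30893738 counts in Saposhnikoviae Radix 500 and 22719326 to 25496832 in Okbyeongpung-san 500. In the listed order of the series, the percentage of each library's counts on mitochondrially encoded genes stepped up after the 31st library. It was 10.8% in the 31st (Guibi-tang 500 replicate 2) and 19.3% in the 32nd (Guibi-tang 100 replicate 2). Later libraries reached as low as 12.9%. The labels and library names state no such step. All libraries of Saposhnikoviae Radix precede the step and all those of Okbyeongpung-san follow it. Extract and library order therefore cannot be told apart in a direct comparison, and the difference at 20 µg/mL, which carries the same order, was subtracted from that at 500. Among the libraries compared, this percentage separated by extract, and so equally by library order, and not by dose. It was 11.2% ± 0.463 (SD, n = 3) in Saposhnikoviae Radix 500 and 11.8% ± 0.809 in Saposhnikoviae Radix 20. It was 14.6% ± 0.318 in Okbyeongpung-san 500 and 15.8% ± 2.2 in Okbyeongpung-san 20, where 1 library lay at 18.4%. Within Guibi-tang and within Saengmaek-san, whose libraries lie on both sides of the step, every library after it lay above every one before it. The 6 epithelial markers (EPCAM, CDH1 and 4 keratins) summed to 7670 to 8174 CPM (counts scaled to a common library total, here the unscaled one) in Saposhnikoviae Radix 500 and 7011 to 7480 in Okbyeongpung-san 500. Of 8 leukocyte markers, 4 had enough counts to be tested, CD68 and CD14 among them, while CD3E was at 0 in every library and PTPRC reached at most 1 count. The 6 fibroblast markers summed to 39.8 to 42 CPM in Saposhnikoviae Radix 500, 35.1 to 39.1 in Okbyeongpung-san 500, 38.5 to 42.5 in Saposhnikoviae Radix 20 and 34.1 to 39.4 in Okbyeongpung-san 20, and endothelial and erythroid markers to under 0.5. The part of the fibroblast and epithelial markers in the differences was not tested.

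Levels below are CPM of the TMM-scaled library total, as the mean ± SD of 3 libraries or as the 3 libraries in order of their replicate numbers. Differences are log2 fold changes with their standard error from one edgeR quasi-likelihood fit, and a gene was called at a Benjamini-Hochberg adjusted p under 0.05. Between the 500 groups, 169 of 17256 genes tested were called, 0.979% of them: 98 were higher with Okbyeongpung-san (0.568%) and 71 lower (0.411%). The higher genes were led by inflammatory genes. Of the 11 that were higher by 1 or more on the log2 scale, CXCL1, CXCL8, CXCL5 and CCL2 encode chemokines, IL32 and EBI3 cytokine chains, ICAM1 and TNFRSF9 surface receptors, and CFB and LCN2 secreted defence proteins, while PDZK1IP1 encodes a small membrane protein. Only 4 genes were lower by as much, all below 5 CPM: the keratin pseudogene KRT8P10 and 3 genes with no symbol (ENSG00000219410, ENSG00000258610 and ENSG00000260136). These 4 stand outside the naming rule and are named because they are so few. Scarce genes were among the 11 higher ones too, as CFB, ICAM1 and EBI3 were below 5 CPM in every library of both 500 groups. KRT8P10 was the one called gene whose 500 groups overlapped, at 0.157, 1.67 and 0.377 CPM with Saposhnikoviae Radix and 0.0442, 0.0415 and 0.159 CPM with Okbyeongpung-san. The call count fell to between 49 and 67 when any one of the 6 libraries was left out, and to 122 when the step in library order was a covariate, of which 41 were among the 169.

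The chemokines that draw neutrophils through the receptors CXCR1 and CXCR2 stood highest. Of 8 such genes, 5 passed the filter on low counts (CXCL1, CXCL2, CXCL3, CXCL5 and CXCL8) and all 5 were called higher with Okbyeongpung-san 500, with a median log2 difference of 1.01 against -0.0008 over all genes tested. The 5 lie together on chromosome 4, CXCL8 at chr4:73740506-73743716, CXCL1 at chr4:73869393-73871242, CXCL5 at chr4:73995642-73998779, CXCL3 at chr4:74036589-74038807 and CXCL2 at chr4:74097035-74099293 (GRCh38). CXCL1, CXCL2 and CXCL3 are close copies of each other, so reads could be split wrongly among them.

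CXCL1, a neutrophil chemokine, was at 0.91, 1.36 and 1.03 CPM with Saposhnikoviae Radix 500 and at 6.19, 5.31 and 5.79 CPM with Okbyeongpung-san 500. The groups did not overlap, and every Saposhnikoviae Radix library was close to the vehicle, at 0.994 ± 0.0939 CPM. The difference was 2.42 ± 0.205 (adjusted p = 1.59e-11). CXCL8, which encodes interleukin-8, was at 1.16, 1.46 and 0.788 CPM against 4.56, 5.14 and 4.84 CPM, a difference of 2.12 ± 0.176 (adjusted p = 1.15e-11). Here too the lowest Okbyeongpung-san library lay above the highest Saposhnikoviae Radix library. CXCL5, the most abundant of the 5 in counts, was at 52.4, 50.9 and 49.5 CPM against 99.6, 103 and 104 CPM, a difference of 1.01 ± 0.0482 (adjusted p = 2.76e-20). The spread within each CXCL5 group was small beside the gap between them. CXCL2 differed by 0.98 ± 0.135 (adjusted p = 7.26e-06), from 2.71 ± 0.249 to 5.32 ± 0.312 CPM. CXCL3 differed by 0.95 ± 0.184 (adjusted p = 0.00304), from 1.29 ± 0.193 to 2.46 ± 0.446 CPM. All 5 calls held without any one library and with the library-order covariate. DESeq2 called 1 of the 5, CXCL5, and gave no adjusted p for the other, scarcer 4. Non-overlap of the 500 groups is itself common here, being met by 34.6% of all genes tested.

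The promoters of these genes are shown because the 5 share a kappa-B type sequence at nearly the same distance from the start of transcription. The stretches run from 120 to 41 bases before the RefSeq start (GRCh38.p14), 5′ to 3′ on the gene's strand, with matches to the motif in capitals.
CXCL1 (chr4:73869273-73869352, plus strand): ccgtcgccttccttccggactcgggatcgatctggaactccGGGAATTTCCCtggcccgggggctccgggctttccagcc
CXCL2 (chr4:74099236-74099315, minus strand): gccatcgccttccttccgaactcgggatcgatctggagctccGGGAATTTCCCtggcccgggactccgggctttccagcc
CXCL3 (chr4:74038730-74038809, minus strand): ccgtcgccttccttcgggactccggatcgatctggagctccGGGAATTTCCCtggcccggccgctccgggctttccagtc
CXCL5 (chr4:73998718-73998797, minus strand): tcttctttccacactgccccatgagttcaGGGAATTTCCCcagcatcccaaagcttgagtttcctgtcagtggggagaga
CXCL8 (chr4:73740449-73740528, plus strand): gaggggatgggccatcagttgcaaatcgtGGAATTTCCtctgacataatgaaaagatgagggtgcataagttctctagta
The capitals in the first 4 mark matches to the kappa-B consensus on either strand, where overlapping matches merge. CXCL8 holds no match to that consensus, and its capitals mark the 9 bases GGAATTTCC that the other 4 also contain, a motif searched after the CXCL8 stretch had been seen. Of 34943 promoters of 300 bases in the RefSeq table, 11.3% hold the consensus and 0.464% hold GGAATTTCC. A match describes the letters only. Promoters of 20 of the 25 genes searched were in the table.

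Of 37 other mediators of the NF-kB response, 21 were tested, 5 were called higher with Okbyeongpung-san 500 (IL32, CCL2, ICAM1, TNIP1 and PLAUR) and 0 lower by edgeR, with 0 lower also at an unadjusted p under 0.05 and by DESeq2, which gave an adjusted p for 13 of the 21 and called 3 higher. The list's median difference was 0.18, with 15 members above 0 and 6 below. IL32, which encodes a cytokine that itself acts through NF-kB, was at 2.92, 2.51 and 2.91 CPM with Saposhnikoviae Radix 500 and at 7.3, 5.97 and 6.31 CPM with Okbyeongpung-san 500. No IL32 library of one extract reached the range of the other. The difference was 1.22 ± 0.17 (adjusted p = 1.11e-05). CCL2, the monocyte chemokine MCP-1, was at 4.71, 4.49 and 4.87 CPM against 10, 9.29 and 10.9 CPM, a difference of 1.10 ± 0.161 (adjusted p = 3e-05). Its groups did not overlap, but the covariate for library order moved the difference to 0.57 (adjusted p = 0.0126). ICAM1, an adhesion receptor for leukocytes, was scarce, at 0.595 ± 0.13 and 1.58 ± 0.318 CPM, and differed by 1.44 ± 0.319 (adjusted p = 0.0155). Its call ended without Okbyeongpung-san 500 replicate 1 (adjusted p = 0.0906), without Saposhnikoviae Radix 500 replicate 1 (0.103) or replicate 3 (0.0756), and with the covariate (0.0747). TNIP1, an inhibitor of NF-kB signalling that binds the TNFAIP3 protein, differed by 0.33 ± 0.0619 (adjusted p = 0.00221; 0.171 with the covariate). SOD2, mitochondrial superoxide dismutase, at 72.1 ± 0.653 and 81.4 ± 2.23 CPM, differed by 0.18 ± 0.0531 and was not called (adjusted p = 0.0873), nor was BIRC3, an inhibitor of apoptosis (0.17 ± 0.0629, adjusted p = 0.161). CCL20 and IL6 were too scarce to be tested, with at most 10 and 2 counts in a library.

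Among 32 complement and acute phase genes, 20 were tested, 3 were higher (C3, CFB and LCN2) and 1 was lower. DESeq2 gave an adjusted p for 11 of the 20 and called 1 higher, C3. The list's median difference was 0.0028. C3, the central complement protein, was at 36.3, 35.2 and 39.6 CPM with Saposhnikoviae Radix 500 and at 61.9, 64.3 and 64 CPM with Okbyeongpung-san 500. The Saposhnikoviae Radix libraries lay with the vehicle (36.7 ± 0.838 CPM) and the Okbyeongpung-san libraries far above. The difference was 0.77 ± 0.0697 (adjusted p = 9.95e-11). CFB, the protease that C3b binds in the alternative pathway, was at 0.69, 0.418 and 0.617 CPM against 2.08, 2.49 and 2.1 CPM, a difference of 1.90 ± 0.23 (adjusted p = 5.8e-07). LCN2, an iron-withholding protein, differed by 1.02 ± 0.24 (adjusted p = 0.0226), a call that ended with the covariate (adjusted p = 0.505) and when 5 of the 6 libraries were left out in turn, up to 0.12 without Okbyeongpung-san 500 replicate 3.

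Upstream of NF-kB, 24 of 30 receptors and adaptors were tested and 1 was called, IRAK2, a kinase-like adaptor of the IL-1 and Toll-like receptors. IRAK2 was at 7.25, 7.31 and 6.65 CPM with Saposhnikoviae Radix 500 and at 11.7, 11.2 and 9.92 CPM with Okbyeongpung-san 500, without overlap. The difference was 0.63 ± 0.0857 (adjusted p = 7.26e-06), and the list's median was 0.06.

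Of 25 NF-kB subunits, kinases and inhibitors, all tested, 5 were higher and 0 lower (4 lower at an unadjusted p under 0.05, 0 by DESeq2, which called 4 higher): TNFAIP3, NFKBIA, NFKBIZ and ZC3H12A, which act as brakes or modifiers of the response, and the subunit NFKB2. The list's median was 0.10, with 15 members above 0 and 10 below. Once the difference at 20 was subtracted, the list's median was 0.0038, with 13 members above 0 and 12 below. Of the 25, 0 were then called by edgeR or DESeq2, with 5 higher and 0 lower at an unadjusted p under 0.05 by edgeR. TNFAIP3, whose product A20 edits ubiquitin chains on the adaptors, was at 6.93, 5.95 and 5.79 CPM with Saposhnikoviae Radix 500 and at 10.4, 10.9 and 10.6 CPM with Okbyeongpung-san 500. The 2 groups stood apart, with the decoction higher, by 0.77 ± 0.105 (adjusted p = 7.26e-06). NFKBIA, the inhibitor that NF-kB resynthesizes, was at 43, 45.4 and 44.9 CPM against 61.7, 56.1 and 60.6 CPM, a difference of 0.42 ± 0.0662 (adjusted p = 0.000106). ZC3H12A, a nuclease that degrades cytokine mRNA, differed by 0.41 ± 0.07 (adjusted p = 0.000449) and NFKBIZ, a nuclear modifier, by 0.39 ± 0.0884 (adjusted p = 0.0169). NFKB2 differed by 0.25 ± 0.0631 (adjusted p = 0.0342), and RELB, its usual partner, by 0.28 ± 0.114 without passing (adjusted p = 0.184). The NFKBIZ and NFKB2 calls each ended without 4 of the 6 libraries, up to 0.105 for NFKBIZ (without Okbyeongpung-san 500 replicate 3) and 0.185 for NFKB2 (without Okbyeongpung-san 500 replicate 2). The NFKB2 call also ended with the covariate (0.165). The TNFAIP3, NFKBIA and IL32 promoters are printed as examples, from genes outside the chemokine cluster, of promoters that hold the kappa-B consensus. CFB, LCN2, TNIP1, NFKBIZ and NFKB2 hold it too, and ICAM1, IRAK2, ZC3H12A and SOD2 have no match in this window.
TNFAIP3 (chr6:137867139-137867218, plus strand): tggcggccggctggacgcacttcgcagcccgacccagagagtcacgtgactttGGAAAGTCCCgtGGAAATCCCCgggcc
NFKBIA (chr14:35404790-35404869, minus strand): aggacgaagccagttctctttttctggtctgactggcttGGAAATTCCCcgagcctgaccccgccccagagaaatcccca
IL32 (chr16:3065283-3065362, plus strand): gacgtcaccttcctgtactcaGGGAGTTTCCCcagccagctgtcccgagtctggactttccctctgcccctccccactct

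**Figure D1:**
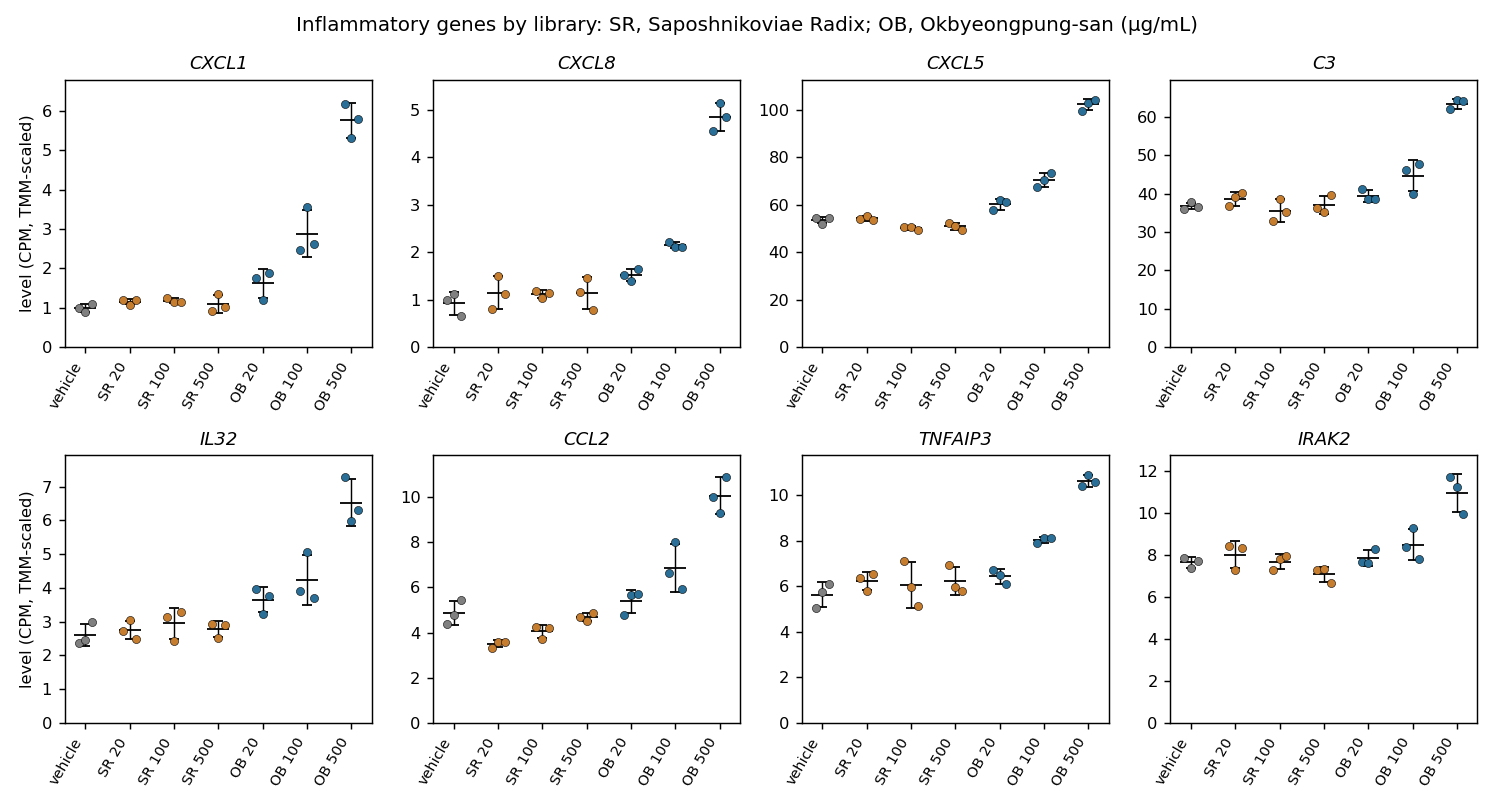
Level of 8 inflammatory genes in each library (CPM on the TMM-scaled library total, linear axes from 0) for vehicle, Saposhnikoviae Radix (SR) and Okbyeongpung-san (OB) at 20, 100 and 500 µg/mL; points are libraries, bars the mean and SD of 3. In all 8 panels the 3 Okbyeongpung-san 500 libraries lie above every other library drawn; CXCL5 reaches 99.6 to 104 CPM there and at most 73.2 CPM elsewhere.

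Summed leukocyte markers also separated by extract, and so equally by library order. They were at 12.2 to 13 CPM in Saposhnikoviae Radix 500, 16.3 to 17.8 in Okbyeongpung-san 500, 10.9 to 13.7 in Saposhnikoviae Radix 20 and 15 to 15.3 in Okbyeongpung-san 20. CD68, a lysosomal protein, gave most of the sum (8.13, 8.04 and 8.12 CPM at 500 against 12, 12.5 and 13.9 CPM). CD14 was at 2.51, 2.82 and 2.13 CPM with Saposhnikoviae Radix 500 and at 2.48, 2.28 and 2.66 CPM with Okbyeongpung-san 500. CD3E and PTPRC were at or near 0 in all groups. The 4 markers tested were all above 0 at 500, with 0 called, and at 20 they were 3 above 0 and 1 below. The part of these markers in the chemokine differences was not tested.

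The other highest genes by the naming rule were C1QTNF1, VDR and 2 readthrough loci. C1QTNF1, which encodes a secreted C1q-like protein, was at 9.29, 8.61 and 8.12 CPM with Saposhnikoviae Radix 500 and at 12.4, 13.2 and 11.3 CPM with Okbyeongpung-san 500, a difference of 0.50 ± 0.0775 (adjusted p = 8.88e-05). VDR, the vitamin D receptor, was at 3.67 ± 0.277 and 5.6 ± 0.684 CPM, a difference of 0.60 ± 0.126 (adjusted p = 0.00815) that was no longer called with the covariate (0.218) or without 4 of the 6 libraries, up to 0.0718 without Okbyeongpung-san 500 replicate 1. BORCS8-MEF2B differed by 0.66 ± 0.165 (adjusted p = 0.0328; 0.158 with the covariate) and ATP6V1G2-DDX39B by 0.58 ± 0.128 (adjusted p = 0.0155). Both readthrough loci overlap other genes, so their counts are uncertain. DDX39B, the helicase gene inside the second, was lower in the same comparison, by a difference of -0.29 ± 0.0564 (adjusted p = 0.00292). Leaving out single libraries took away the BORCS8-MEF2B call in 5 of 6 fits, up to 0.194, and the ATP6V1G2-DDX39B call in 4 of 6, up to 0.107 without Saposhnikoviae Radix 500 replicate 3.

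Among genes that were lower with Okbyeongpung-san 500, the AhR targets were the list with the lowest median, -0.22 over the 9 tested of 12. CYP1B1 and TIPARP were called lower and 0 of the 9 higher by edgeR (1 at an unadjusted p under 0.05, 0 by DESeq2). CYP1B1, a monooxygenase of the CYP1 family, was at 137, 130 and 130 CPM with Saposhnikoviae Radix 500 and at 106, 112 and 111 CPM with Okbyeongpung-san 500. The Okbyeongpung-san libraries lay between the vehicle (95.2 ± 0.876 CPM) and the herb. The difference was -0.27 ± 0.0426 (adjusted p = 8.88e-05) and became -0.17 with the covariate (adjusted p = 0.0206). TIPARP, a mono-ADP-ribosyltransferase that restrains AhR, was at 50.1, 49.3 and 47.9 CPM against 38, 42 and 39 CPM, a difference of -0.31 ± 0.0531 (adjusted p = 0.000612). Here the decoction lay at the level of the vehicle, 39.1 ± 1.56 CPM. CYP1A1, the most AhR-dependent of the enzymes, was at 2.76, 1.72 and 2.3 CPM against 1.5, 1.41 and 1.47 CPM. Its groups did not overlap, and its difference of -0.66 ± 0.18 missed the threshold (adjusted p = 0.0562), as did that of AHRR, the AhR repressor (-0.18 ± 0.124, adjusted p = 0.443).

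The 12 lowest genes of the naming rule were MVP-DT, FCGBP, RPSAP58, AP1M2, ACAD8, MAP1LC3A, MORN1, UBL5, NDUFA1, TM4SF20, LMBR1L and MTFP1, with differences from -0.76 to -0.38. FCGBP, a mucus-associated glycoprotein gene, was at 13.7, 15.1 and 14.1 CPM with Saposhnikoviae Radix 500 and at 9.33, 8.42 and 8.06 CPM with Okbyeongpung-san 500, a difference of -0.73 ± 0.173 (adjusted p = 0.0242). AP1M2, an epithelial sorting adaptor, was at 18.1, 19.2 and 18.4 CPM against 13, 12.1 and 11.8 CPM, a difference of -0.59 ± 0.142 (adjusted p = 0.0276). Both showed lower levels already at 20 µg/mL, by -0.50 and -0.38. All 12 calls ended with the covariate for library order, and each ended without at least 2 of the 6 libraries; for AP1M2, FCGBP, MORN1, MTFP1, NDUFA1 and UBL5 no fit with a library left out kept the call. MVP-DT runs on the strand opposite a neighbouring gene and RPSAP58 is a processed copy of a ribosomal protein gene, so both counts are uncertain.

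Of 18 cytosolic chaperones tested, 3 were called lower at 500 (HSPA1B, DNAJB1 and DNAJA1) and 4 at 20 (with HSPH1), and 15 and 14 did not pass. The list's medians were -0.08 at both doses, with 11 members below 0 and 7 above at 500 and 14 below and 4 above at 20. HSPB1, a small heat shock protein gene, ran the other way, at 344, 322 and 354 CPM with Saposhnikoviae Radix 500 and 439, 430 and 449 CPM with Okbyeongpung-san 500, a difference of 0.37 that was not called (adjusted p = 0.177). None was called higher by edgeR at either dose, with 3 at an unadjusted p under 0.05 at 500 and 1 at 20, and 0 by DESeq2 at both. At 20, 10 of 17256 genes were called (0.058%), 1 higher (0.0058%) and 9 lower (0.0522%), of which 6 were among those lower at 500. HSPA1B, an inducible HSP70 gene, was at 241, 239 and 215 CPM with Saposhnikoviae Radix 20 and at 171, 162 and 151 CPM with Okbyeongpung-san 20, a difference of -0.52 (adjusted p = 0.000104). At 500 it was at 234, 233 and 225 CPM against 190, 196 and 171 CPM, a difference of -0.31 ± 0.0721 (adjusted p = 0.02) that was lost without 5 of the 6 libraries, up to 0.174 without Okbyeongpung-san 500 replicate 3, and with the covariate (0.0747). The DNAJB1 and DNAJA1 calls at 500 were kept in no fit with a library left out (0.0505 to 0.2 and 0.0612 to 0.227), and DNAJB1 was also lost with no filter on low counts (0.0818). Groups at 20 that did not overlap, as for HSPA1B, were met in 25.7% of all genes tested. The vehicle, at 191 ± 6.49 CPM, lay between the extracts at 20. HSPA1B and HSPA1A are near-identical copies, so counts could be split wrongly between them, and HSPA1A was not called at either dose. The co-chaperone DNAJB4 differed by -0.34 at 20 and by -0.27 ± 0.0532 at 500 (adjusted p = 0.00127 and 0.00304). DUSP1, a phosphatase that ends MAP kinase signalling, differed by -0.32 at 20 and -0.28 ± 0.0603 at 500 (adjusted p = 0.0106 and 0.0116), and SLF2, a DNA repair scaffold, by -0.31 at 20 (adjusted p = 0.0106). The one gene higher at 20 was MIRLET7IHG, a microRNA host gene, by 0.49 (adjusted p = 0.0263), whose call ended without 5 of the 6 libraries, up to 0.273 without Okbyeongpung-san 20 replicate 1. HERPUD1, a gene of the unfolded protein response, differed by -0.20 (adjusted p = 0.0263), and its call also ended without 5 of 6, up to 0.297. Leaving out 1 library at a time gave 1 to 11 calls at 20, and of the named genes HSPA1B alone was kept in all 6 of those fits. DNAJB4 was lost without Saposhnikoviae Radix 20 replicate 1 (0.076), and the calls of DNAJA1, DUSP1, MIRLET7IHG and SLF2 at 20 ended with the covariate.

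Subtracting the difference at 20 from that at 500 removed whatever difference between the 2 extracts' libraries was equal at both doses. A difference from library order was removed only as far as it was equal at both, which was not tested. In Okbyeongpung-san 20, replicate 3 held 18.4% mitochondrial counts, and replicates 1 and 2 held 14.4% and 14.7%. Of 17256 genes, 8 were called (0.0464%): 6 toward the decoction at the higher dose (0.0348%), CXCL1, CXCL8, CXCL5, C3, IRAK2 and NPTX1, and 2 toward the herb (0.0116%), CYP1B1 and SYP. The values were 1.94 ± 0.321 for CXCL1 (adjusted p = 0.00128), 1.72 ± 0.273 for CXCL8 (0.000734) and 0.85 ± 0.0687 for CXCL5 (8.39e-12). At 20 the CXCL1 difference was 0.49 (adjusted p = 0.343), with CXCL1 at 1.16 ± 0.0708 CPM with the herb and 1.62 ± 0.362 CPM with the decoction. For C3 the value was 0.74 ± 0.1 (adjusted p = 2.21e-05), for IRAK2 0.66 ± 0.123 (0.009) and for CYP1B1 -0.32 ± 0.0607 (0.009). NPTX1, a neuronal pentraxin gene, gave 0.23 ± 0.0477 (adjusted p = 0.0495). SYP, the synaptophysin gene, is under 5 CPM and outside the naming rule, and was at 2.72, 2.74 and 2.97 CPM (Saposhnikoviae Radix 20), 3.48, 4.18 and 3.84 (Saposhnikoviae Radix 500), 3.51, 3.39 and 4.22 (Okbyeongpung-san 20) and 3.01, 2.07 and 2.66 (Okbyeongpung-san 500), giving -0.96 ± 0.187 (adjusted p = 0.0152). SYP was higher with the decoction at 20 and higher with the herb at 500. The calls of C3, CXCL1, CXCL5 and CXCL8 held in all 12 fits that left out a library. CYP1B1 was lost in 4 of them (up to 0.0992, without Saposhnikoviae Radix 20 replicate 3), IRAK2 in 3 (up to 0.0677, without Okbyeongpung-san 500 replicate 1) and NPTX1 in 10 (up to 0.227). With no filter on low counts CYP1B1 (0.077) and NPTX1 (0.367) were lost, and NPTX1 also with RLE size factors (0.0526). With only the 4 groups in the fit CXCL8 (0.0524), IRAK2 (0.0575) and NPTX1 (0.0524) missed the threshold. The SYP call was not followed in the alternative fits.

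Several inflammatory genes with large differences at 500 did not pass this test. IL32 gave 0.81 ± 0.253 and CCL2 0.48 ± 0.245 (adjusted p = 1 for both), TNFAIP3 0.72 ± 0.154 (adjusted p = 0.0539) and CFB 1.47 ± 0.36 (adjusted p = 0.236). CXCL2 gave 0.73 ± 0.2 (adjusted p = 0.626) and CXCL3 0.89 ± 0.281 (adjusted p = 1). All 6 values were above 0. Of the 98 genes higher at 500, 87 were above 0 at 20, with a median of 0.10 there, 0.14 at 100 and 0.30 at 500. Of the 71 lower, 65 were below 0 at 20, with medians of -0.16, -0.18 and -0.28. Both sets were selected at 500, so these medians are a description.

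**Figure D2:**
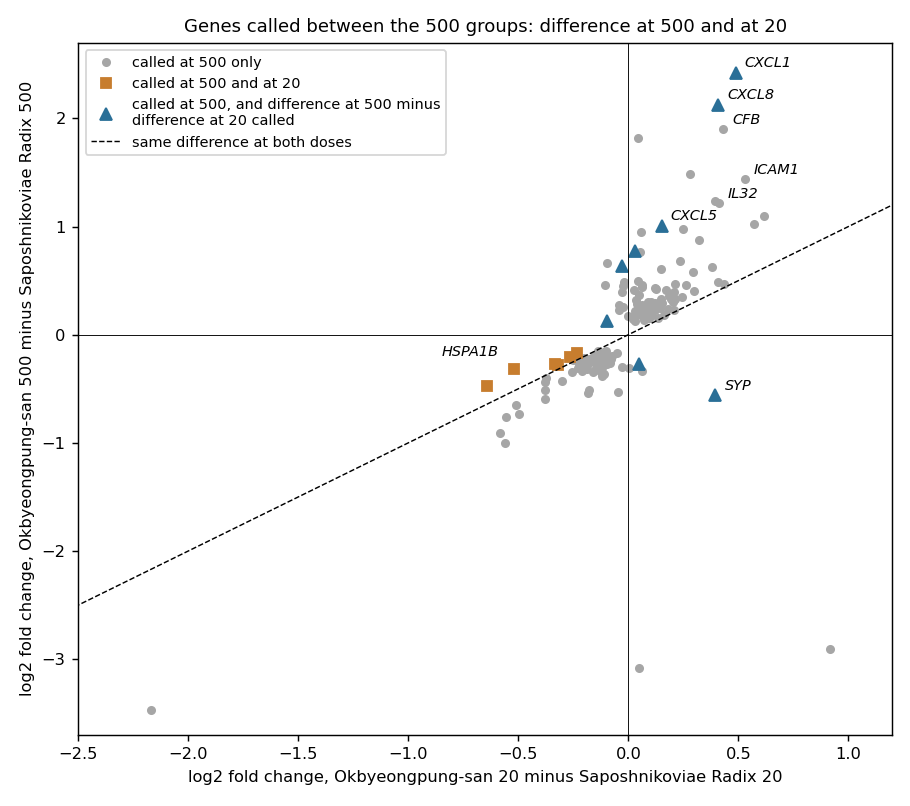
Each point is one of the 169 genes called between the 500 groups; the horizontal axis gives its log2 difference between the extracts at 20 µg/mL and the vertical axis that at 500 µg/mL, and the dashed line marks equal differences. CXCL1 (0.49 and 2.42) and CXCL8 (0.41 and 2.12) lie far above the line, while HSPA1B (-0.52 and -0.31) lies nearer to it.

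Within Okbyeongpung-san, 17 genes rose from 20 to 500 µg/mL (0.0985% of 17256) and 0 fell by edgeR, with 299 lower at an unadjusted p under 0.05 and 1 by DESeq2. Among the 17 were CXCL1, CXCL8, CFB, PDZK1IP1, CXCL3, CCL2, IL32, CXCL2, CXCL5, TNFAIP3, C3, C1QTNF1, IRAK2, ZC3H12A, SOD2 and RHBDF2. All libraries of this contrast lie after the step in library order. CXCL5 rose by 0.77 ± 0.0481 (adjusted p = 1.13e-15), from 57.6, 61.9 and 61.2 CPM. C3 rose by 0.69 ± 0.0703 (adjusted p = 1.01e-08), from 41.1, 38.5 and 38.5 CPM. CXCL1 rose by 1.82 ± 0.198 (adjusted p = 3.29e-08), from 1.77, 1.21 and 1.88 CPM. In each of these 3 genes the 500 libraries, given above, lay clear of the 20 libraries, and 10.8% of all genes tested did not overlap in this contrast. RHBDF2, an inactive rhomboid protein that carries the TNF-releasing protease to the cell surface, rose by 0.22 ± 0.0465 (adjusted p = 0.0258). NFKBIA, called between the extracts, gave 0.14 ± 0.0661 here (adjusted p = 1), with Okbyeongpung-san 20 at 54 ± 4.21 CPM. The IL32 rise of 0.83 ± 0.169 (adjusted p = 0.0169) was lost without 5 of the 6 libraries, up to 0.241 without Okbyeongpung-san 20 replicate 2, and the SOD2 and ZC3H12A rises were also lost without 5 of 6, up to 0.221 and 0.553, both without Okbyeongpung-san 20 replicate 1. That replicate also decided CCL2 (0.0772 without it), and CXCL3 was lost without Okbyeongpung-san 20 replicate 2 (0.0938) or 500 replicate 3 (0.0525) and IRAK2 without Okbyeongpung-san 500 replicate 1 (0.0567). With only the groups compared in the fit CXCL3 (0.107), IRAK2 (0.0542) and ZC3H12A (0.0839) were not called.

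Within Saposhnikoviae Radix, 14 genes were called (0.0811%): 5 rose (0.029%), VIPR1, CYP1A1, CYP1B1, TIPARP and STK32B, and 9 fell (0.0522%), ID2, ID3, ID4, ATOH8, BMP6, NR4A3, NPTX1, TGM2 and DIO2. Not one of the 5 neutrophil chemokines was among them (median -0.05, 2 above 0 and 3 below). Of the 9 AhR targets tested, 3 rose. CYP1B1 rose by 0.47 ± 0.0427 (adjusted p = 3.96e-10), from 99.8, 93.9 and 92.4 CPM at 20. TIPARP rose by 0.34 ± 0.0529 (adjusted p = 0.000444), from 42.2, 34.4 and 39.7 CPM. CYP1A1 rose by 0.88 ± 0.182 (adjusted p = 0.026), from 1.19, 1.39 and 1.17 CPM. For these 3 genes every library at 500 lay above every library at 20, and groups that did not overlap were met in 12.4% of all genes tested in this contrast. The CYP1A1 call ended without 5 of the 6 libraries, up to 0.572 without Saposhnikoviae Radix 500 replicate 1, by DESeq2 (0.0508) and with only the groups compared in the fit (0.121). The NPTX1 fall was lost with no filter on low counts (0.221) and without 4 of the 6 libraries, up to 0.197 without Saposhnikoviae Radix 20 replicate 3. Okbyeongpung-san gave 0.15 ± 0.0432 for CYP1B1, 0.03 ± 0.0547 for TIPARP and 0.29 ± 0.204 for CYP1A1, none of them called. Of these 3 genes the difference between the 2 changes was called for CYP1B1 only, being -0.31 ± 0.0761 for TIPARP (adjusted p = 0.236) and -0.59 ± 0.275 for CYP1A1 (adjusted p = 1). The CYP1A1 promoter holds the core of the AhR binding site, GCGTG, which 36.5% of all promoters also hold.
CYP1A1 (chr15:74725569-74725648, minus strand): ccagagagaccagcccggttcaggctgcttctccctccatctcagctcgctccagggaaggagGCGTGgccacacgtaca
The capitals mark GCGTG, searched on both strands.

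The genes that fell with the herb included 5 of the 19 tested targets and feedback genes of the BMP pathway (median -0.19). ID2, ID3 and ID4 encode inhibitors of differentiation that BMP receptors induce through SMAD proteins, ATOH8 a transcription factor and BMP6 a ligand. ID2 was at 105, 116 and 112 CPM at 20 and at 85.1, 87.5 and 89.2 CPM at 500, a fall of -0.35 ± 0.0574 (adjusted p = 0.00104). ID3 fell from 151, 167 and 156 CPM to 126, 122 and 130 CPM, a change of -0.32 ± 0.0631 (adjusted p = 0.0114). ATOH8 fell from 15.5, 19.2 and 18.3 CPM to 12.5, 13.1 and 12.6 CPM, a change of -0.47 ± 0.0867 (adjusted p = 0.0056). The 500 libraries lay below the 20 libraries in all 3 genes, and below the vehicle too, as in 2.45% of all genes tested (the 500 libraries and the vehicle did not overlap in either direction in 29.7%). NR4A3, an immediate early nuclear receptor, fell by 0.46 on the log2 scale (± 0.0722, adjusted p = 0.000444), and DIO2, the selenoprotein that activates thyroid hormone, by 0.26 (± 0.0401, adjusted p = 0.000444). With Okbyeongpung-san the BMP list had a median of -0.13, with 16 of 19 members below 0 and 0 called by edgeR (6 lower at an unadjusted p under 0.05, 0 by DESeq2); ID2 gave -0.13 ± 0.0574, ID3 -0.17 ± 0.0633 and ATOH8 -0.27 ± 0.0868. The difference between the 2 changes was not called for any of them: 0.22 ± 0.0811 for ID2, 0.15 ± 0.0893 for ID3 and 0.21 ± 0.123 for ATOH8 (adjusted p = 1 for each). Between the extracts at 500, ID2 and DIO2 were called higher with Okbyeongpung-san, by 0.26 ± 0.0576 (adjusted p = 0.0137) and 0.21 ± 0.0403 (0.00304), and both calls ended with the covariate (0.232 and 0.103). The ID2 call between the extracts also ended without 4 of the 6 libraries, up to 0.0893 without Okbyeongpung-san 500 replicate 2. The BMP6 fall was lost without 4 of 6 libraries, up to 0.846 without Saposhnikoviae Radix 500 replicate 1, and those of ATOH8 and ID4 without 3 of 6, up to 0.158 (Saposhnikoviae Radix 20 replicate 2) and 0.0738 (Saposhnikoviae Radix 500 replicate 1).

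**Figure D3:**
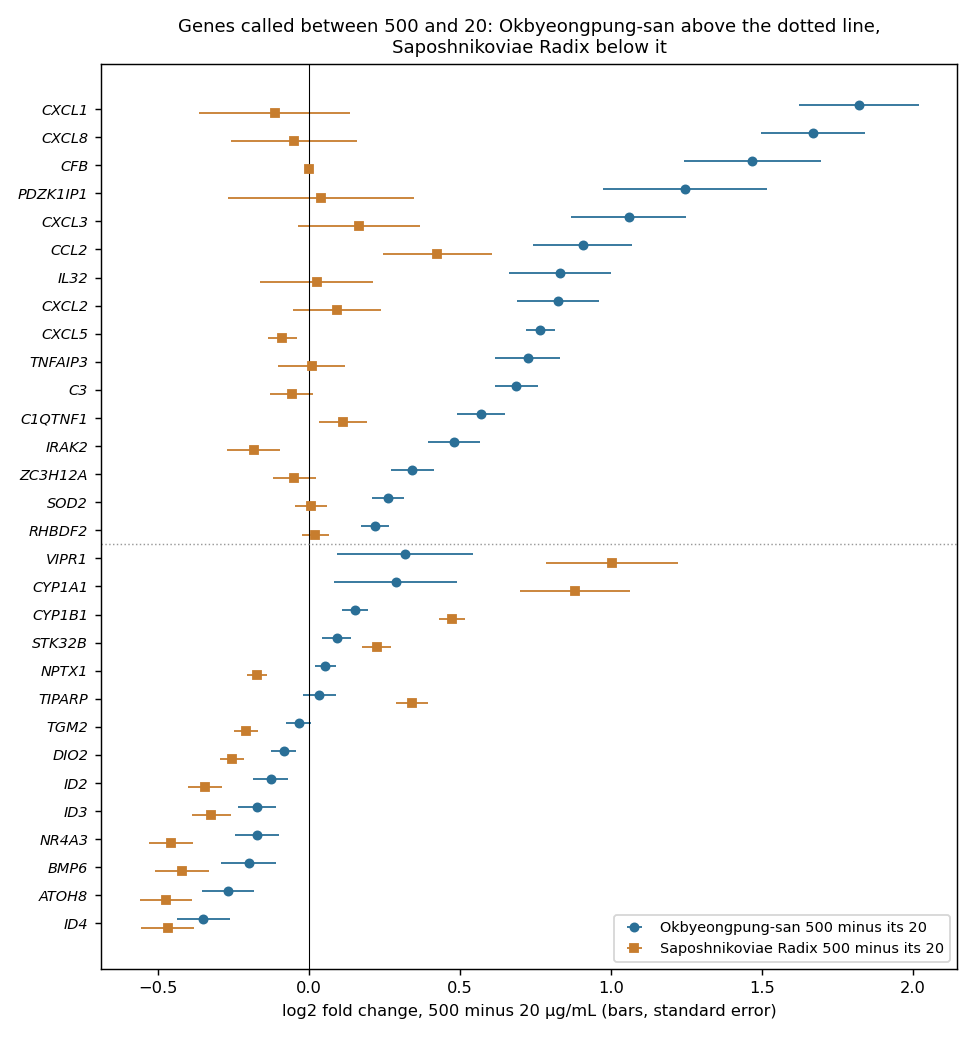
Log2 change from 20 to 500 µg/mL within each extract (circles Okbyeongpung-san, squares Saposhnikoviae Radix; bars are standard errors, and the Saposhnikoviae Radix value of CFB, which is 0, has none) for 16 of the 17 genes called within Okbyeongpung-san, above the dotted line, and the 14 called within Saposhnikoviae Radix, below it. CXCL1 changed by 1.82 with the decoction and -0.12 with the herb, and CYP1B1 by 0.15 and 0.47.

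**Figure D4:**
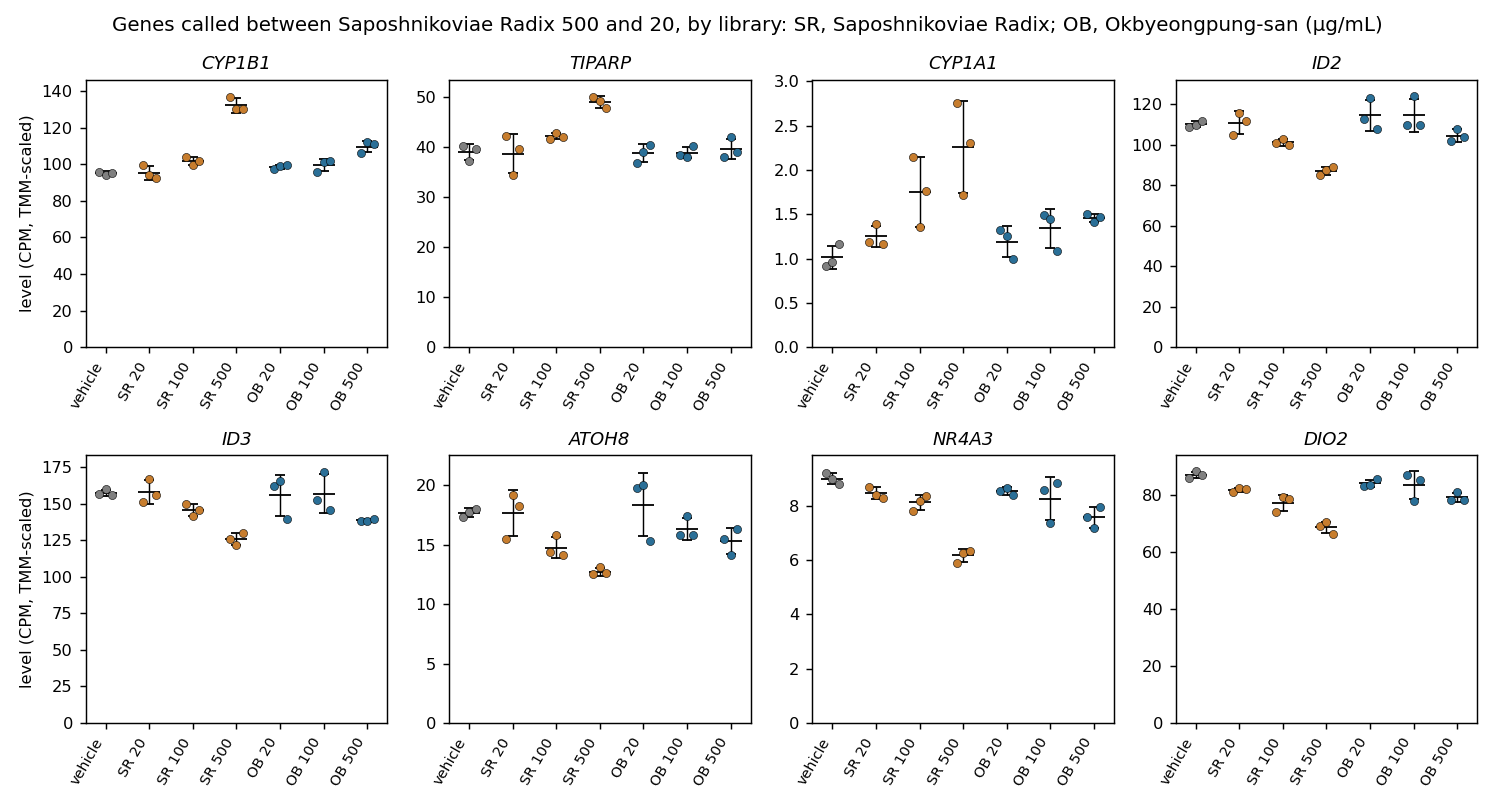
Level in each library of 8 genes called between 500 and 20 µg/mL of Saposhnikoviae Radix (CPM on the TMM-scaled library total, linear axes from 0; SR Saposhnikoviae Radix, OB Okbyeongpung-san; bars are the mean and SD of 3 libraries). For CYP1B1 the Saposhnikoviae Radix 500 libraries, at 130 to 137 CPM, lie above all others, and for ID2, at 85.1 to 89.2 CPM, below all others.

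At 100 µg/mL, 4 of the 5 neutrophil chemokines (CXCL1, CXCL2, CXCL5 and CXCL8) had every Okbyeongpung-san library above all those at 20 and below all those at 500, an order that 0.151% of all genes tested showed. So did 3 of the 21 other mediators (CCL2, SOD2 and MMP7), 1 of the 25 NF-kB subunits, kinases and inhibitors (TNFAIP3), 1 of the 20 complement and acute phase genes (LCN2) and 0 of the 24 receptors and adaptors. The order was also met by 1 of the 20 unfolded protein response genes (HYOU1) and 1 of the 18 cytosolic chaperones (HSPA1A). These lists were chosen with the rise at 500 known, so the counts are a description. CXCL5 was at 67.6, 70.6 and 73.2 CPM and CXCL1 at 2.46, 3.57 and 2.62 CPM with Okbyeongpung-san 100. C3 was at 46.1, 40 and 47.7 CPM, which overlapped its level at 20, as did IRAK2 (8.39, 9.26 and 7.79 CPM), IL32 (3.9, 5.07 and 3.71) and ICAM1 (0.675, 0.724 and 1.2). With Saposhnikoviae Radix 100, CXCL5 was at 50.6, 50.6 and 49.3 CPM and CXCL1 at 1.25, 1.14 and 1.15 CPM, both within or near the range of the other doses. The difference at 100 minus the difference at 20 was called for 0 of 17256 genes by edgeR, with 351 at an unadjusted p under 0.05, and for 1 gene by DESeq2.

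Other lists gave few calls between the 500 groups. Of the TGF-beta, YAP and matrix genes, 3 of 24 were higher, among them CDH2, N-cadherin (0.18 ± 0.0451, adjusted p = 0.0336) and LTBP2, a matrix protein that binds fibrillin (0.28 ± 0.0535, 0.00304). CDH2 was not called with the covariate (0.275) and was lost without 5 of the 6 libraries, up to 0.162, and LTBP2 without Saposhnikoviae Radix 500 replicate 2 (0.0564). Of 31 NRF2 targets 2 were lower, the aldo-keto reductase genes AKR1B10 (-0.32 ± 0.078, adjusted p = 0.0312) and AKR1C1 (-0.26 ± 0.0664, 0.0406), 2 members of a family of close copies whose counts are uncertain and whose calls were kept in no fit with a library left out. NQO1, a quinone reductase, differed by -0.22 ± 0.0655 and HMOX1, heme oxygenase, by -0.10 ± 0.0427, neither called (adjusted p = 0.0839 and 0.199). Of 20 p53 targets, GDF15, a stress cytokine, was lower (-0.31 ± 0.0801, adjusted p = 0.0444; 0.48 with the covariate), and 19 of 20 members were below 0 at 500 and 18 at 20, with medians of -0.09 at both doses. Of 18 selenoprotein genes, DIO2 was higher and SELENOS lower (-0.22 ± 0.0565, adjusted p = 0.0399), and of 23 immediate early genes DUSP1 and DUSP5 were lower. Single libraries left out ended the GDF15 and DUSP5 calls in 5 of 6 fits (up to 0.243 and 0.26; DUSP5 also with no filter on low counts, 0.108), the SELENOS call in 4 (up to 0.221) and the DUSP1 call in 3 (up to 0.0896). RPLP2 was the 1 of 34 ribosomal proteins and NDUFA1 the 1 of 27 nuclear oxidative phosphorylation genes that were called, both lower, both lost with the covariate (0.602 and 0.674) and both kept in no fit with a library left out.

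In 9 further lists edgeR called 0 genes between the 500 groups. They were interferon response (29 tested, 5 at an unadjusted p under 0.05, 0 by DESeq2, which gave an adjusted p for 11), hypoxia and glycolysis (24, 4 and 0), DNA replication (25, 5 and 0), mitosis (24, 6 and 0), ribosome biogenesis (24, 6 and 1), amino acid response (25, 7 and 1), unfolded protein response (20, 7 and 2), cholesterol and fatty acid genes (31, 10 and 2) and mucins, keratins and lung epithelial genes (17, 2 and 1). The 15 mitochondrially encoded genes, with 0 called by edgeR (7 at an unadjusted p under 0.05, 0 by DESeq2), were all above 0 at both doses, with medians of 0.47 at 500 and 0.51 at 20, and the median of their interaction was -0.06. The part of the mitochondrial share in the differences between extracts was not tested. MKI67, a marker of cycling cells, differed by 0.20 ± 0.114 (adjusted p = 0.334), MUC5AC, a secreted mucin, by 0.21 ± 0.142 (0.429), KLF2 by 0.17 ± 0.124 (0.465) and NR4A1 by -0.0038 ± 0.0857 (0.991). GPX1, a glutathione peroxidase, differed by 0.10 ± 0.0594 (adjusted p = 0.34) and ID1, a BMP target, by -0.05 ± 0.0802 (0.781).

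**Figure D5:**
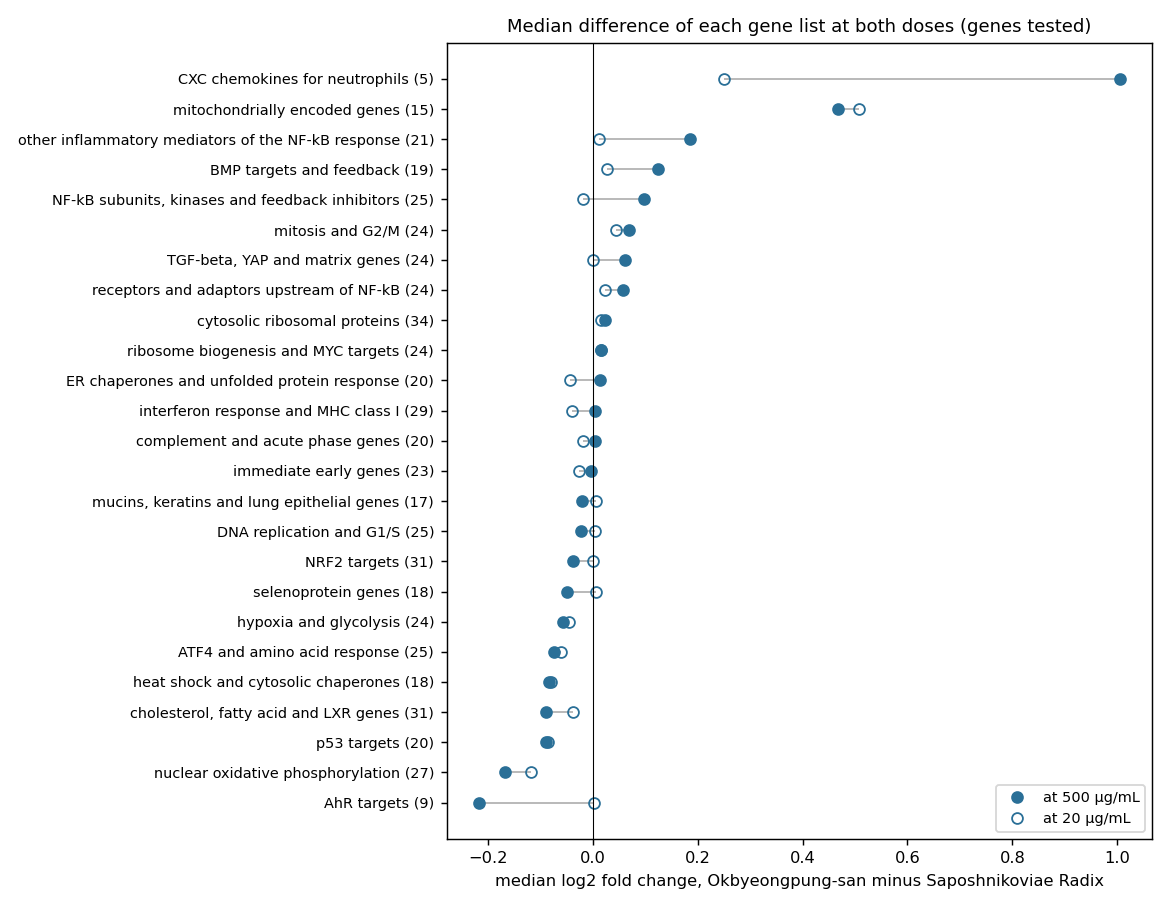
Median log2 difference between Okbyeongpung-san and Saposhnikoviae Radix for the 25 gene lists, at 500 µg/mL (filled) and 20 µg/mL (open), with the number of genes tested in brackets. The neutrophil chemokines stand at 1.01 and 0.25, the AhR targets at -0.22 and 0.001, and the mitochondrially encoded genes at 0.47 and 0.51.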

How the data were processed

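The authors deposited one table of RSEM expected counts for 60675 genes in 60 libraries of A549 cells. Per the submitters' processing notes, FastQC 0.11.9, Trim Galore 0.6.5, STAR 2.7.3a and RSEM 1.3.3 were used with hg38; the annotation release and the strand setting are not given in the sources used here. Per the labels' protocols, reads were paired, 100 bases long, from a directional kit. All columns matched a sample by name (0 left aside). Symbols came from a table of current gene names (56558 genes) or GENCODE 29 (497), and 3620 genes had none.

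Expected counts, 10.5% of them not whole, were rounded. Genes were kept by filterByExpr (17256), scaled by TMM and tested with edgeR 4.0.16 (quasi-likelihood, R 4.3.3) in one fit of 57 libraries in 19 groups, which share one estimate of spread; the 3 Soshiho-tang libraries were left out. In that fit the groups of Saengmaek-san and Guibi-tang have libraries on both sides of the step in library order. All tests were two-sided, and p-values were adjusted by Benjamini-Hochberg over all genes tested. The contrasts used 500 and 20 µg/mL, and one more also the 100 µg/mL libraries. Each standard error is the log2 fold change divided by the root of its quasi-likelihood F. The fit was tested on simulated counts. Alternatives were DESeq2 1.42.0, RLE size factors, no filter, only the groups compared, a covariate for the step in library order, a replicate block and each library left out in turn. DESeq2 gives no adjusted p for some scarce genes, which its counts of calls leave out.

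The members and the gene lists were chosen with earlier results of these data known. Lists: neutrophil chemokines, other NF-kB mediators, receptors and adaptors, NF-kB subunits and inhibitors, complement and acute phase, interferon response, AhR, NRF2, BMP, TGF-beta and matrix, immediate early, selenoprotein, epithelial, p53, unfolded protein, amino acid response, heat shock, cholesterol, hypoxia, G1/S, mitosis, ribosome biogenesis, ribosomal protein, mitochondrially encoded and nuclear oxidative phosphorylation genes, with markers of epithelium, leukocytes, fibroblasts, endothelium and erythroid cells. Named genes were the 12 highest and 12 lowest called at 500, up to 8 each way for the interaction and 5 each way at 20 (mean of 5 CPM or more, groups not overlapping, with a symbol), up to 4 called members of each list, and a fixed panel. Promoters are those of RefSeq on GRCh38.p14. Replicates were too unlike to be one library deposited repeatedly (chi-square per degree of freedom of 1.881 or more), so none was merged. Some called genes are not reported here.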

Additional observations from a re-analysis of the deposited data

Results flagged for a closer look

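For 8 genes the difference between Okbyeongpung-san and Saposhnikoviae Radix at 500 µg/mL differed from that at 20 µg/mL by edgeR's test of the interaction (adjusted p under 0.05). The log2 values of the interaction were 1.94 for CXCL1, 1.72 for CXCL8, 0.85 for CXCL5, 0.74 for C3, 0.66 for IRAK2 and 0.23 for NPTX1, all toward a larger excess with the decoction at the higher dose. CYP1B1 gave -0.32 and SYP -0.96, toward the herb. Those of CXCL1, CXCL5, CXCL8 and C3 were called in all 12 fits that left out a library. That of SYP, a scarce gene outside the naming rule, was not followed in those fits.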

How the results depend on the processing

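None of the 94 calls of named genes reversed its direction in an alternative run that gave it an adjusted p. Between the 500 groups the count of 169 became 313 by DESeq2, 1389 with no filter on low counts and 3515 with only the 6 libraries compared in the fit. At 20, the count of 10 became 20, 841 and 1176 in the same order, and 50 with the covariate for library order. For the interaction at 500, the count of 8 became 70 with no filter, 4 with only the groups compared and 15 with the covariate. For the interaction at 100, where the count was 0, DESeq2 called 1 and the fit with no filter 76. The 17 genes called within Okbyeongpung-san became 93 with no filter, and the 14 within Saposhnikoviae Radix became 101 with no filter, 22 by DESeq2, 35 with only the groups compared and 27 with the covariate. The cause of these shifts was not tested. Leaving out 1 library gave 49 to 67 calls at 500, 1 to 11 at 20, 5 to 9 and 0 to 0 for the interactions at 500 and 100, 11 to 14 within Okbyeongpung-san and 5 to 12 within Saposhnikoviae Radix.

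Pairing by replicate number was not seen in deviations from the group means, correlated over all genes tested. Same-numbered libraries correlated at -0.0251 to 0.037 over 12 pairs, and differently numbered ones at -0.0292 to 0.04. Scarce genes weigh as much as abundant ones in this measure, so it cannot exclude a pairing. With a replicate block the counts were 234 and 10 for the extracts at 500 and 20, 8 and 0 for the interactions, 18 within Okbyeongpung-san and 15 within Saposhnikoviae Radix, and all 94 calls of named genes were kept. The covariate kept 56 of those 94 calls. Scarce genes such as CXCL1, ICAM1 and CFB rest on few counts, and intervals cover only the spread within groups of the 57 libraries fitted.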

Other observations

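Among the other genes called higher with Okbyeongpung-san 500, several encode transcription factors. EPAS1, a hypoxia-inducible factor, differed by 0.27 (adjusted p = 0.000734), PRDM1, a zinc finger repressor, by 0.45 (0.00146), ZEB2, a repressor of epithelial genes, by 0.46 (0.0182) and SOX9, a regulator of progenitor cells, by 0.40 (0.0224). At 20 µg/mL these 4 gave 0.06, -0.02, 0.06 and 0.21, none called. EFNA1, a ligand of Eph receptors, differed by 0.49 at 500 (adjusted p = 0.00509) and -0.02 at 20, and GLIPR1, a secreted CAP-family protein gene, by 0.41 (7.26e-06) and 0.17. These 6 were chosen after their values had been seen. None was among the 8 genes called in the interaction at 500. Their calls were not followed in the alternative fits, where 41 of the 169 calls at 500 held with the covariate for library order.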
